A study of Mus musculus with 12 samples.

Results

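The embryonic and adult hemoglobin genes were taken from the table of gene expression by name, as Hba-x, Hba-a1 and Hba-a2 of the alpha-like family and Hbb-y, Hbb-bh1, Hbb-bt, Hbb-bs, Hbb-b1 and Hbb-b2 of the beta-like family. All 9 were found among the 26190 rows. Atria and ventricles dissected from wild-type mouse hearts at E11.5 (E11.5H) were measured beside the atrium-like part and the ventricle-like part cut from heart organoids (HOs), with 3 replicates in each of the 4 groups. The HOs were grown from mouse embryonic stem cells for 13 days with FGF4 and a laminin-entactin (LN/ET) complex, without a circulation. Per the study's methods, BMP4, the Wnt activator BIO and leukemia inhibitory factor (LIF) were added to the medium from day 9. The labels give C57BL/6 as the strain of embryos and HOs alike, while the study's methods also list stem cells from a cross of C57BL/6 with JF1 and do not say which cells were used here. The dissection was surgical and the RNA came from whole pieces, so that each library held every cell type of its piece, blood left in the chambers included. Nothing in the labels tells whether replicates came from separate litters or cultures. The study's methods call the dissected HOs biological triplicates without further detail. The p-values therefore measure the spread between these samples.

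Hemoglobin, the oxygen carrier of red blood cells, is built from alpha-like and beta-like chains with heme. In the mouse embryo, primitive red cells that arise in the yolk sac enter the circulation and make embryonic chains, namely the alpha-like chain of Hba-x and the beta-like chains of Hbb-y and Hbb-bh1, beside adult alpha chains. Definitive red cells from the fetal liver make adult chains, which are those of Hba-a1 and Hba-a2 and of the adult beta genes. Each family lies in a cluster on its own chromosome, with the embryonic genes ahead of the adult genes in the direction of transcription.

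The near-identity of the adult copies bears on how values are split among the adult rows below. The first 60 coding bases of the 7 genes with a GENCODE M21 transcript are therefore shown, 5′ to 3′ on the coding strand. Capitals mark bases that differ from Hba-a1 for the alpha-like genes and from Hbb-bt for the beta-like genes. The alpha-like genes are on the plus strand of GRCm38 at chr11:32276664-32276723 (Hba-x), chr11:32283707-32283766 (Hba-a1) and chr11:32296524-32296583 (Hba-a2). The beta-like genes are on the minus strand at chr7:103853093-103853152 (Hbb-y), chr7:103843051-103843110 (Hbb-bh1), chr7:103827816-103827875 (Hbb-bs) and chr7:103813810-103813869 (Hbb-bt). All of these stretches are coding sequence within a single exon.
Hba-x: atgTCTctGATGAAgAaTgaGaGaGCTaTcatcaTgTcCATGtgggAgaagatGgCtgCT
Hba-a1: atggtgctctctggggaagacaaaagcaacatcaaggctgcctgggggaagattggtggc
Hba-a2: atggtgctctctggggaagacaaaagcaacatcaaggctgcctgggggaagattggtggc
Hbb-y: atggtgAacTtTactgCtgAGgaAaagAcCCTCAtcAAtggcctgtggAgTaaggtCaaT
Hbb-bh1: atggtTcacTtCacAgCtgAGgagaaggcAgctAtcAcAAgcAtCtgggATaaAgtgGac
Hbb-bt: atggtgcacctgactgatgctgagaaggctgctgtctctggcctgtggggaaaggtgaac
Hbb-bs: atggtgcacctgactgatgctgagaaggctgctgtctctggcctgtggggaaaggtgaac

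Over their whole coding sequence of 429 bases, Hba-a1 and Hba-a2 differed at 1 base, and 87.1% of the 50-base windows of Hba-a1 were also found in Hba-a2. Hbb-bt and Hbb-bs differed at 1 of 444 bases, with 92.9% of such windows shared. The embryonic genes shared no 50-base window with any other gene of their length. Hba-x matched Hba-a1 at 62.0% of coding bases, and Hbb-y matched Hbb-bh1 at 76.4% and Hbb-bt at 74.1%.

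The table itself split the adult genes over overlapping rows. Hbb-bt and Hbb-b2 had the same position (chromosome 7, 103812524 to 103813923) and the same fragment number in all 12 libraries. Hbb-bs and Hbb-b1 were placed at nearly the same position (starts 103826523 and 103826532), and there Hbb-bs was listed at 0 FPKM in every library but ventricles replicate 3, where it had 4.21 FPKM, while Hbb-b1 took the rest. Hbb-b1 and Hbb-b2 are the names of the adult beta genes in another mouse haplotype than that of C57BL/6. Hba-a1 and Hba-a2 each had a row at chromosome 11, 32283672 and 32283675, and a second row at 32296489 and 32296492. The 2 second rows were added to the 9, which gave 11 hemoglobin rows, and values are given below as the sum of the 4 adult alpha rows, of Hbb-bt with Hbb-b2, and of Hbb-bs with Hbb-b1.

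Sequence just upstream of the start was read from RefSeq (GRCm38.p6) for 6 of the 9 genes, and is printed for an embryonic and an adult gene whose window, bases 100 to 11 before the start, lies outside annotated transcripts. Capitals mark the letters CACCC of red cell promoters, and the letters CCAAT and those of the TATA box, TATAA, which many promoters hold, all searched on both strands. The windows are chr7:103853218-103853307 on the minus strand and chr11:32296392-32296481 on the plus strand.
Hbb-y: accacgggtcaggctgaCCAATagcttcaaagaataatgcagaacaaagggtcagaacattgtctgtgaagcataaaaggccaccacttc
Hba-a2: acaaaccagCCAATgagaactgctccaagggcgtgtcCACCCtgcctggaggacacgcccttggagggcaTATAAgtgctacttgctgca

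Within 100 bases before the start, CACCC was found in 5 of the 6 promoters and in 27.2% of 32851 RefSeq promoters, CCAAT in 5 of 6 and 18.9%, and TATAA in 5 of 6 and 10.2%. The GATA motif, written as AGATAA or else as TGATAA, was in none of those 100 bases of the 6 genes, and 6.17% of all promoters held it. In the longer window of 250 bases it was found in 5 of the 6, and in 16.6% of all promoters. These matches describe letters in a window and no binding was measured.

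Fragments assigned to genes numbered 25943640 to 30540993 in the 6 embryonic libraries and 23971258 to 29230400 in the 6 HO libraries, and a count of 0 allowed up to 0.0982 to 0.125 CPM (from 3 counts; this floor and the intervals below cover counting error only). Ventricles replicate 3 stood apart from the other embryonic libraries in its red cell genes and is treated as such below. As a check of the labelled tissue, the 12 cardiomyocyte genes summed to 33824 to 43902 CPM in the embryonic libraries and to 761 to 10207 CPM in the HO libraries.

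Hbb-y, an embryonic beta-like gene, was the most abundant hemoglobin gene per length in every embryonic library and the most abundant of all genes in ventricles replicates 2 and 3. It had 3616, 7090 and 3820 FPKM (fragments per kilobase of transcript, scaled to the size of the library) in the atria and 5700, 9191 and 36779 FPKM in the ventricles. The atria were lower than 2 of the 3 ventricle libraries throughout, but atria replicate 2 lay above ventricles replicate 1. Between the means of 4842 ± 1949 and 17223 ± 17026 FPKM (SD, n = 3 each), atria over ventricles gave a log2 fold change of -1.94 with a standard error (SE) of 0.59, which missed the threshold (adjusted p = 0.0570 by edgeR).

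Hbb-bh1, the other embryonic beta-like gene, had 884, 1702 and 761 FPKM in the atria and 1340, 2203 and 6698 FPKM in the ventricles. The order of the libraries was that of Hbb-y except that atria replicate 3 was lowest in place of replicate 1, and the groups overlapped. Its log2 fold change was -1.71 (SE 0.52, adjusted p = 0.0574 by edgeR).

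Hba-x, the embryonic alpha-like gene, had 1023, 1918 and 1041 FPKM in the atria and 1615, 2762 and 9539 FPKM in the ventricles. Again only atria replicate 2 rose above the lowest ventricle library. The log2 fold change of -1.91 (SE 0.56) passed the threshold, set at an adjusted p under 0.05 together with a log2 fold change beyond 1 in either direction, by a small margin (adjusted p = 0.0478 by edgeR).

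The adult alpha rows together held 2281, 4621 and 2717 FPKM in the atria and 3664, 6199 and 24726 FPKM in the ventricles. Nearly all of it was listed under Hba-a1, since the rows named Hba-a2 took 1.45% to 1.83% of adult alpha fragments in the embryonic libraries. At the first position Hba-a1 had 1732, 3497 and 2047 FPKM in the atria and 2743, 4649 and 18529 FPKM in the ventricles, with a log2 fold change of -1.94 (SE 0.60, adjusted p = 0.0586 by edgeR). At the same position, the row named Hba-a2 was far lower, at 30.1, 47.4 and 31.6 FPKM in the atria and 46.0, 71.1 and 289 FPKM in the ventricles. It passed the threshold at -2.0 (SE 0.58, adjusted p = 0.0469 by edgeR). GENCODE M21 places the Hba-a1 gene at this first position and the Hba-a2 gene at the second. At the second position the row named Hba-a1 had 508, 1054 and 629 FPKM in the atria and 859, 1460 and 5808 FPKM in the ventricles. Given the single coding difference between these genes, the split between their names and positions is uncertain.

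The adult beta genes were the lowest of the family. Hbb-bt with Hbb-b2 had 217, 429 and 305 FPKM in the atria and 385, 588 and 2752 FPKM in the ventricles, and the log2 fold change of either row was -2.07 (SE 0.63, adjusted p = 0.0545 by edgeR). Hbb-bs with Hbb-b1 had 39.2, 79.2 and 73.4 FPKM in the atria and 71.6, 109 and 624 FPKM in the ventricles. The Hbb-b1 row had a log2 fold change of -2.17 (SE 0.69, adjusted p = 0.0672 by edgeR), and Hbb-bs was too low to be tested. Chambers overlapped for both loci.

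**Figure D1:**
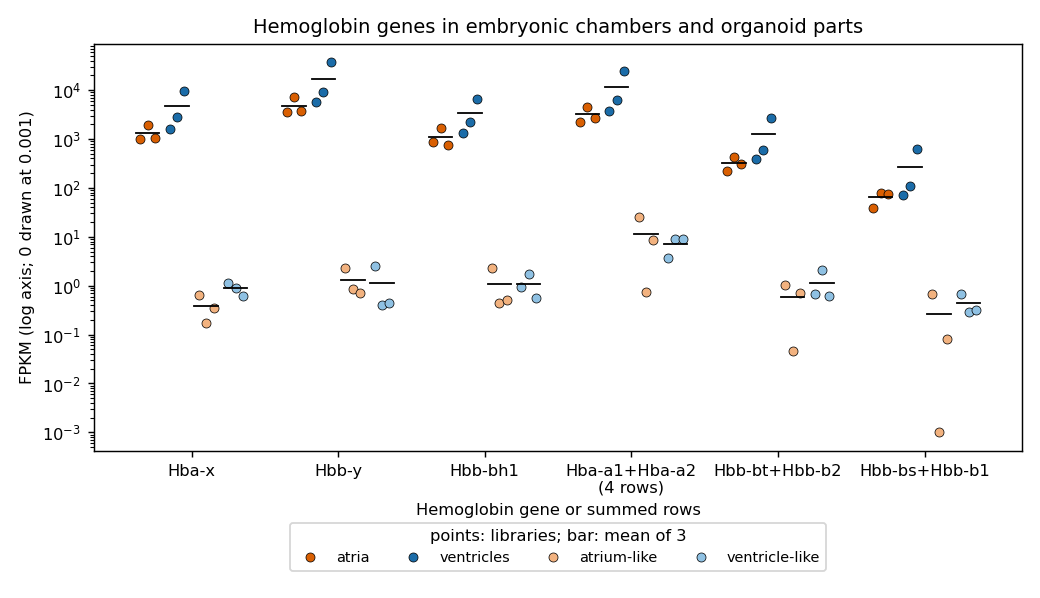
FPKM on a log axis of each hemoglobin gene or sum of rows in the 12 libraries, with points for libraries and a bar for the mean of 3; a value of 0 is drawn at 0.001. Ventricles replicate 3 is the highest point of every gene, and all HO libraries lie under 26 FPKM.

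In all 6 embryonic libraries the order per length was the same, with Hbb-y first, then adult alpha, Hba-x, Hbb-bh1, Hbb-bt with Hbb-b2, and Hbb-bs with Hbb-b1. Between neighbours of this order the ranges over the 6 libraries overlapped, because the libraries differed in the sum of all hemoglobin more than neighbouring genes differed within a library. Within each library the neighbours kept their order 6 of 6 times. For the adult beta loci this order rests on an uncertain split of reads, since Hbb-bt and Hbb-bs have a single coding difference.

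Of the 9 genes, 8 passed the filter on low counts between the chambers, with Hbb-bt and Hbb-b2 counted apart though their counts are the same. Of these 8, 2 were called lower in atria, Hba-x and the Hba-a2 row at the first position. Beside them, 1.97% of all 14536 genes tested were called lower, 2.92% higher and 4.90% in either direction. With the rows of a locus or gene summed, a fit added after the data were seen, only Hba-x was called (-1.91, adjusted p = 0.0464 by edgeR). Adult alpha was then at -1.95 (SE 0.59, adjusted p = 0.056 by edgeR). The 8 log2 fold changes lay between -2.17 and -1.71 with a median of -1.97, while the median of all genes was 0.01. No call was left without ventricles replicate 3, where Hbb-y had a log2 fold change of -0.68 (adjusted p = 0.158 by edgeR) and Hba-x of -0.78 (adjusted p = 0.111 by edgeR). No call was left without any of the 3 atrial libraries either, and 1 was left without ventricles replicate 2, whereas without ventricles replicate 1, 9 of the 10 tested hemoglobin rows passed. In bulk RNA of this kind, fewer red cells in a piece and less hemoglobin RNA per cell cannot be told apart.

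The share of a library's fragments that fell on the 11 hemoglobin rows was taken as a measure of its content of blood. It was 0.56%, 1.09% and 0.616% in the atria and 0.875%, 1.44% and 5.52% in the ventricles, with narrow Wilson 95% intervals, such as 0.613% to 0.619% for atria replicate 3 and 5.52% to 5.53% for ventricles replicate 3. Ventricles replicate 3 thus held 3.84 times the share of ventricles replicate 2 and 9.87 times that of atria replicate 1. With means of 0.755% ± 0.292 and 2.61% ± 2.54 (SD, n = 3 each) the chambers overlapped, and the difference of -1.40 in mean log2 share was within the spread (exact two-sided permutation test, p = 0.2, adjusted to 0.467 over 7 such tests; the smallest p of 3 against 3 is 0.1). Without ventricles replicate 3 it was -0.64.

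**Figure D2:**
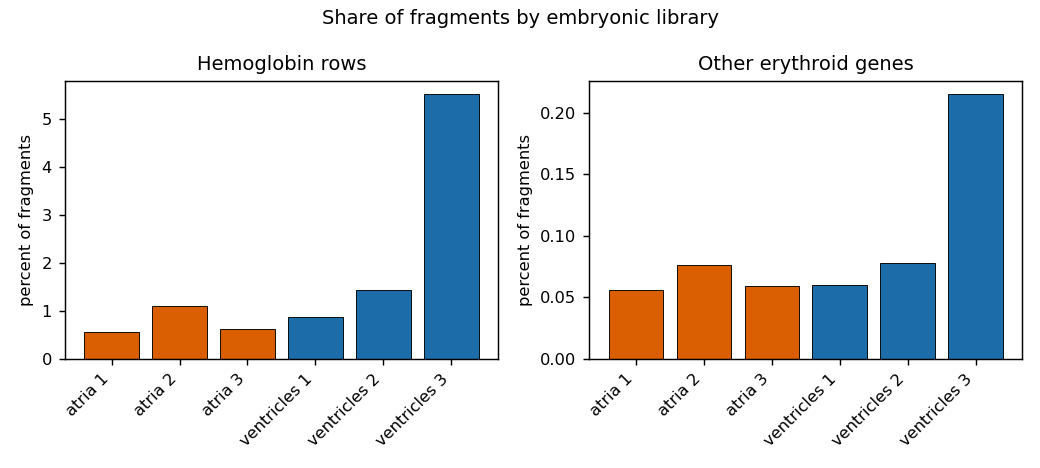
Percent of a library's fragments on the hemoglobin rows (left) and on 26 other genes of red cells (right) in each embryonic library, with bars starting at 0. Ventricles replicate 3 is highest in both, at 5.52% and 0.215%.

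A pair of other red cell genes, chosen after their values were seen, was ordered much like the hemoglobin genes over the libraries. Slc4a1, the band 3 anion exchanger of the red cell membrane, had 1239, 2552 and 1148 fragments in the atria and 1900, 3022 and 12518 in the ventricles. Alas2, the first enzyme of heme synthesis in red cells, had 888, 1888 and 1072 fragments in the atria and 1462, 2432 and 8674 in the ventricles. For both, ventricles replicate 3 was far above the rest and atria replicate 2 above ventricles replicate 1, as for the hemoglobin genes. The log2 fold changes were -2.09 for Slc4a1 (SE 0.64, adjusted p = 0.0592 by edgeR) and -1.96 for Alas2 (SE 0.60, adjusted p = 0.0565 by edgeR).

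Ventricles replicate 3 was the highest of the 6 embryonic libraries for all 8 hemoglobin genes with a mean of at least 1 CPM, for 13 of 15 genes of the red cell membrane and its skeleton, for 12 of 12 genes of heme synthesis and iron uptake and for 10 of 10 other erythroid genes, but for 7 of 13 erythroid regulators. Over all 13308 genes at that level it was highest for 8.0%. It was highest for none of 9 platelet and megakaryocyte genes, 1 of 13 leukocyte and macrophage genes and none of 12 cardiomyocyte genes. The median fold over the median of the other 5 embryonic libraries was 6.57 for the hemoglobin genes, 5.17 for the membrane genes, 2.55 for the other erythroid genes, 1.59 for heme synthesis and iron uptake, 1.26 for the regulators and 0.92 for all genes.

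A set of 26 genes, made up of the membrane and skeleton genes, Alas2, Klf1, Gata1 and most of the other erythroid genes, summed to 0.0556%, 0.076% and 0.0586% of fragments in the atria and 0.0595%, 0.0774% and 0.215% in the ventricles. The chambers overlapped (exact permutation test, p = 0.2, adjusted to 0.467). Not all of these genes are particular to red cells, since the same sum was 0.0364% to 0.0442% in the HO libraries. Hemoglobin fragments per fragment of this sum numbered 10.1, 14.3 and 10.5 in the atria and 14.7, 18.6 and 25.7 in the ventricles. The chambers did not overlap there (difference of -0.74 in mean log2, exact permutation test, p = 0.1, the smallest possible, adjusted to 0.467), but the direction turned when only Alas2 and Slc4a1 were set against hemoglobin, an alternative chosen after the data were seen. Per fragment of that pair, hemoglobin had 80.3, 72.0 and 76.2 fragments in the atria and 73.0, 74.5 and 67.6 in the ventricles, a narrow range with a difference of 0.09 in mean log2 (exact permutation test, p = 0.3).

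Among the 15 membrane and skeleton genes, 2 were called lower in atria, beside 1.97% of all genes called lower and 2.92% called higher. Their median log2 fold change was -1.58, in a range from -2.61 for Kel, a blood group gene, to 0.10, and 4 of the 15 lay between -0.19 and 0.10. Neither call was left without ventricles replicate 3 or without any of the atrial libraries. Of the 12 heme synthesis and iron uptake genes 1 was called, the transferrin receptor gene Tfrc, at -1.01 (adjusted p = 0.00206 by edgeR), and their median was -0.31. Tfrc fell below the fold threshold without ventricles replicate 3, at -0.87, and was also lost without atria replicate 2 or 3. Of the 10 other erythroid genes tested 1 was called lower, with a list median of -0.98, and that call was lost without ventricles replicate 3 or any of the atrial libraries.

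Of the 13 erythroid regulators 1 was called in each direction, beside 2.92% of all genes higher and 1.97% lower, with a median log2 fold change of -0.26. Klf1, the activator of adult beta globin and other red cell genes, had 3.05, 5.16 and 2.70 FPKM in the atria and 6.16, 9.08 and 22.4 FPKM in the ventricles. Every atrial library lay below every ventricle library (log2 fold change -1.88, standard error 0.45, adjusted p = 0.0212 by edgeR), and without ventricles replicate 3 it narrowly missed, at -1.12 (adjusted p = 0.0506 by edgeR), as it did without atria replicate 1 or 3. Bcl11a, a repressor of embryonic beta-like genes in definitive red cells that is also expressed in other tissues, had 3.53, 3.41 and 3.23 FPKM in the atria and 1.5, 1.22 and 1.79 FPKM in the ventricles. It was higher in all atrial libraries (log2 fold change 1.10, standard error 0.17, adjusted p = 0.00197 by edgeR), although without ventricles replicate 2 it fell under the fold threshold, at 0.96. Gata1, the central regulator of red cells and megakaryocytes, was at -1.24 (SE 0.45, adjusted p = 0.105 by edgeR).

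All 10 platelet and megakaryocyte genes had log2 fold changes above 0, with a median of 0.96, and none passed. Pf4, platelet factor 4, had 66.8, 84.7 and 81.6 FPKM in the atria and 34.7, 33.1 and 62.3 FPKM in the ventricles, and every atrial library was higher (log2 fold change 0.76, standard error 0.23, adjusted p = 0.0575 by edgeR). Of the 13 leukocyte and macrophage genes 5 were called higher in atria and 1 lower, beside 2.92% and 1.97% of all genes, with a median of 1.58. The complement gene C1qb (1.58, adjusted p = 9.34e-04 by edgeR) and the macrophage receptor gene Csf1r (1.64, adjusted p = 0.00383 by edgeR) were among the higher ones. Lyz2, the lysozyme gene of myeloid cells, was the lower one, at -2.70 (adjusted p = 1.53e-04 by edgeR). Within the ventricles, however, replicate 3 was the highest library for 8 of the 10 platelet genes and 7 of the 13 leukocyte genes, as for all 9 hemoglobin genes, and for 24.0% of all 17533 genes with a count there. Their part in the hemoglobin result was not tested.

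**Figure D3:**
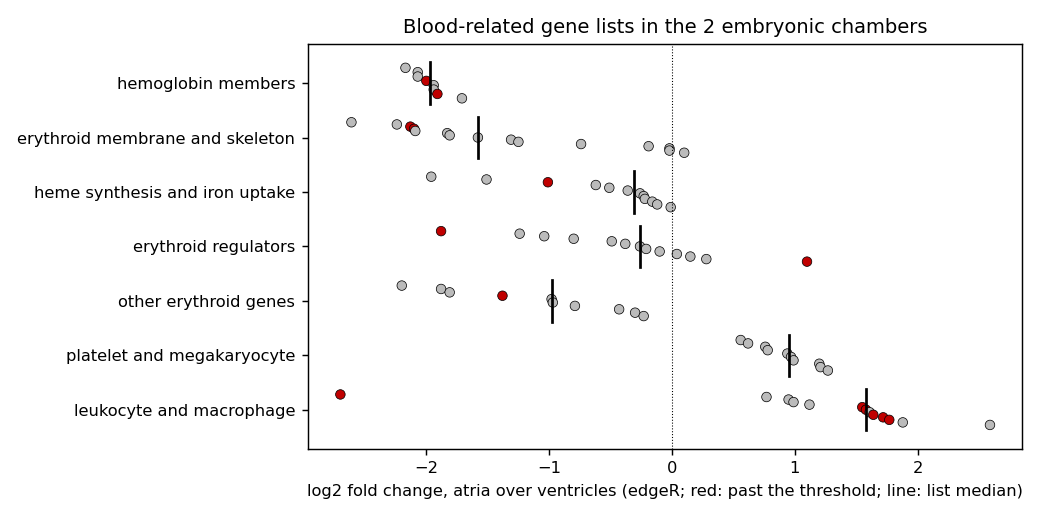
Log2 fold change of atria over ventricles (edgeR) for each tested gene of 7 blood-related lists, with red points past the threshold and a black line at the list median. Hemoglobin genes lie between -2.17 and -1.71, while the platelet genes lie above 0.

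The ratio of embryonic to adult chains was compared per length, from FPKM. Hbb-y with Hbb-bh1 exceeded the adult beta rows 17.5-fold, 17.3-fold and 12.1-fold in the atria and 15.4-fold, 16.4-fold and 12.9-fold in the ventricles. With means of 15.7 ± 3.08 and 14.9 ± 1.80 (SD, n = 3 each), the chambers differed by 0.06 in mean log2, which was not detectable against the spread between replicates (exact permutation test, p = 0.7, adjusted to 0.900). In the alpha-like family the embryonic gene was the lesser one. Hba-x stood at 0.449, 0.415 and 0.383 of the adult alpha rows in the atria and at 0.441, 0.446 and 0.386 in the ventricles, a difference of -0.03 in mean log2 (exact permutation test, p = 0.9, adjusted to 0.900).

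Within the embryonic beta-like pair, Hbb-bh1 was at 0.245, 0.240 and 0.199 of Hbb-y in the atria and at 0.235, 0.240 and 0.182 in the ventricles (exact permutation test, p = 0.5, adjusted to 0.875). The libraries numbered 3 were the lowest of their chamber in all 3 of these ratios. Alpha-like over beta-like FPKM, which covers all 11 rows, was 0.695, 0.703 and 0.758 in the atria and 0.704, 0.741 and 0.731 in the ventricles (exact permutation test, p = 0.8, adjusted to 0.900). It thus varied far less than the level of any single gene, and ventricles replicate 3, with the most hemoglobin, lay within the range of the others. Between the adult beta loci, Hbb-bt with Hbb-b2 had 5.55, 5.41 and 4.16 times the FPKM of Hbb-bs with Hbb-b1 in the atria and 5.37, 5.38 and 4.41 times in the ventricles, again lowest in the libraries numbered 3. Given the single coding difference between Hbb-bt and Hbb-bs, the split of reads between these loci is uncertain, and so is this ratio.

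**Figure D4:**
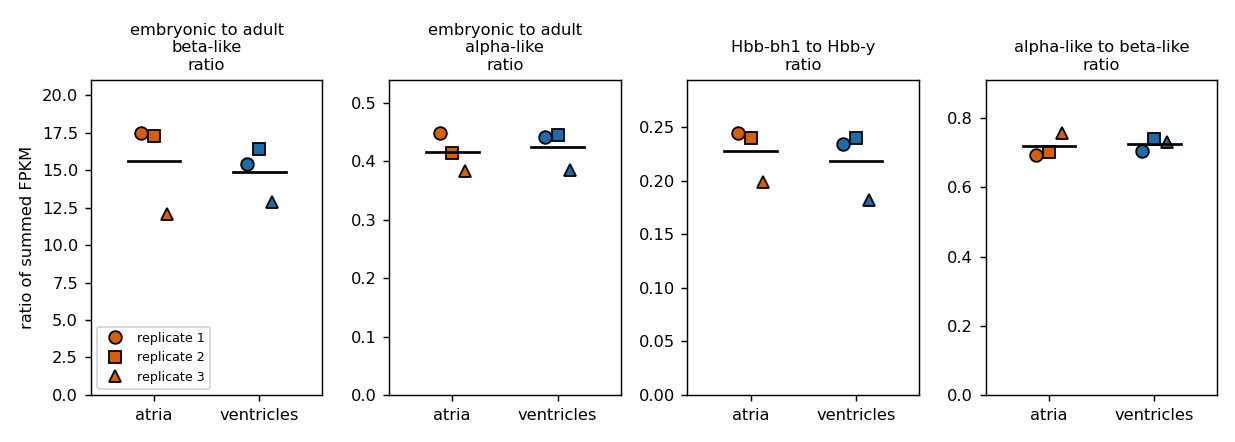
Ratios of summed FPKM in each embryonic library, with the replicate number as the symbol and a line at the mean of 3, on axes that start at 0. Replicate 3 is the lowest point of both chambers in the first 3 panels, at 12.1 and 12.9 for the beta-like ratio.

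As a share of hemoglobin fragments, Hbb-y took 45.4% to 46.4% in the atria and 45.2% to 46.9% in the ventricles, and the adult alpha rows 26.4% to 29.1% and 26.8% to 28.5%. Hba-x took 12% to 12.7% and 11.8% to 13.2%, and Hbb-bh1 8.91% to 11.2% and 8.42% to 10.7%. The adult beta loci held the small remainder.

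In HOs hemoglobin was low, though above the floor of a count of 0 in every library. The 11 rows together received 523, 45.5 and 207 fragments in the atrium-like parts and 189, 272 and 218 in the ventricle-like parts. That is 0.00218%, 0.000156% and 0.000771% of fragments in the atrium-like parts (Wilson 95% interval of the highest 0.00200% to 0.00238%), and 0.000673%, 0.000974% and 0.000794% in the ventricle-like parts. The summed rows averaged 10.4 ± 10.4 CPM in atrium-like parts against 7553 ± 2916 CPM in atria, 729-fold lower, and 8.14 ± 1.52 CPM in ventricle-like parts against 26123 ± 25380 CPM in ventricles, 3210-fold lower (SD, n = 3 each). Single libraries carried these folds. Without atrium-like replicate 1 the former was 1630-fold, and without ventricles replicate 3 the latter was 1421-fold. With any other library left out they were 511-fold to 823-fold and 2955-fold to 4278-fold.

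All 8 hemoglobin genes tested were called as lower in the atrium-like part compared with atria, beside 8.81% of 15418 genes called in that direction (16.0% were called higher and 24.8% in either). Ventricle-like parts were likewise below ventricles for all 8, beside 7.35% of 15094 genes (11.6% were called higher and 18.9% in either). Hbb-bs was too low to be tested in both. Of the genes tested, Hba-a2, Hbb-bt, Hbb-b2 and Hbb-b1 did not pass the filter between the HO parts. They entered only through the embryonic libraries, so lower was the only call open to them. The shares of all genes are thus no measure of chance for these calls. With limma and voom in place of edgeR, 1 of the 10 tested rows was called in the ventricle-like comparison, and all 10 in the atrium-like one. Hbb-y had 2.31, 0.858 and 0.695 FPKM in atrium-like and 2.57, 0.396 and 0.448 FPKM in ventricle-like parts. No HO library came near the embryonic values, and the log2 fold changes were -11.66 (SE 0.80, adjusted p = 0.00132 by edgeR) against atria and -13.99 (SE 1.51, adjusted p = 0.00278 by edgeR) against ventricles. Hba-x had 0.641, 0.172 and 0.358 FPKM in atrium-like and 1.12, 0.918 and 0.617 FPKM in ventricle-like parts, with log2 fold changes of -11.51 (adjusted p = 0.00123 by edgeR) and -12.46 (adjusted p = 0.00176 by edgeR). Hbb-bh1 had 2.29, 0.435 and 0.504 FPKM and 0.951, 1.71 and 0.556 FPKM, at -9.79 (adjusted p = 0.00224 by edgeR) and -11.75 (adjusted p = 0.00176 by edgeR).

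The adult alpha rows had the highest values of the family in HOs, with 25, 0.739 and 8.79 FPKM in atrium-like and 3.74, 8.92 and 9.21 FPKM in ventricle-like parts. They came first in 5 of the 6 HO libraries and second to Hbb-y in atrium-like replicate 2. Hba-a1 at its first position was at -7.69 (SE 1.36, adjusted p = 0.0101 by edgeR) against atria and at -10.64 (SE 1.14, adjusted p = 0.00273 by edgeR) against ventricles. The former was close to Hbb-b1 against atria, at -7.77 (SE 1.13, adjusted p = 0.00597 by edgeR). The row named Hba-a2 at the first position was listed at 0 FPKM in 5 HO libraries and at 0.439 in ventricle-like replicate 2. At the second position, where GENCODE M21 places the Hba-a2 gene, the row named Hba-a1 had 0.106 to 3.57 FPKM in atrium-like and 0.674 to 1.73 FPKM in ventricle-like parts. The adult beta rows stayed at 2.08 FPKM or less for Hbb-bt with Hbb-b2 and at 0.692 FPKM or less for Hbb-bs with Hbb-b1.

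In these 6 HO libraries the few hemoglobin fragments were divided among the rows otherwise than in E11.5H. The adult alpha rows took 76.5%, 30.4% and 77.3% of them in atrium-like parts, with Wilson 95% intervals of 72.7% to 79.9%, 19.1% to 44.8% and 71.1% to 82.5%. In ventricle-like parts they took 36.5%, 59.9% and 76.6%, with intervals of 30.0% to 43.6%, 54.0% to 65.6% and 70.6% to 81.7%. All 6 were above the embryonic libraries, but the interval of atrium-like replicate 2, which rests on 46 fragments, covered the atrial values. The mean differences of 33.8 and 30.1 percentage points from atria and ventricles gave the smallest p that 3 against 3 allows (exact two-sided permutation test, p = 0.1 each; this comparison was chosen after the values were seen). Hbb-y took 6.76% to 39.1% in atrium-like parts and 2.94% to 27.5% in ventricle-like parts, below every embryonic library. Its interval in atrium-like replicate 2, 26.4% to 53.5%, also covered the atrial values. At 8 to 52 Hbb-y fragments a library, ratios between single genes in HOs are too uncertain to be ordered.

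**Figure D5:**
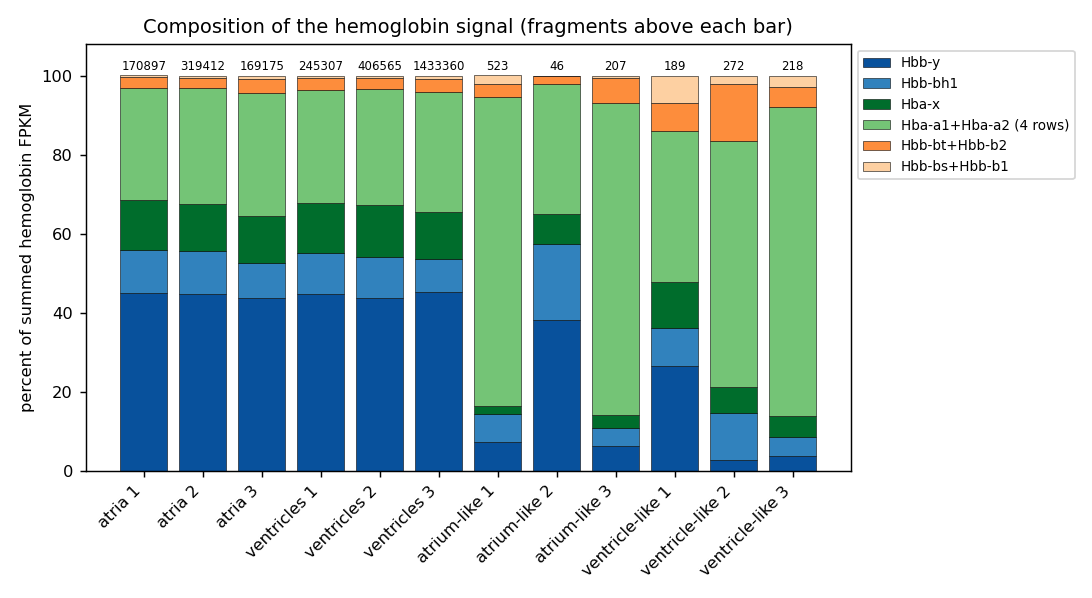
Percent of summed hemoglobin FPKM by gene or sum of rows in the 12 libraries, with the number of hemoglobin fragments above each bar. The 6 embryonic bars are alike, whereas the adult alpha rows take 32.8% to 79.0% of the HO bars, which rest on 46 to 523 fragments.

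Between atrium-like and ventricle-like parts no gene of the 15703 tested passed (0% called; 889 at an unadjusted p under 0.05 by edgeR, and 56 calls by DESeq2), and 4 of the 9 hemoglobin genes could be tested. Their log2 fold changes of atrium-like over ventricle-like parts were 0.42 for Hbb-y (SE 1.09, adjusted p = 0.924 by edgeR), 0.31 for Hbb-bh1 (SE 1.02), -0.90 for Hba-x (SE 0.86) and 1.03 for Hba-a1 (SE 1.19). These differences were within the spread between replicates, and those of Hbb-y, Hbb-bh1 and Hba-a1 turned negative without atrium-like replicate 1.

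Some genes of red cells had no fragment in HOs, and others had a few or more. Slc4a1 had no fragment in any of the 6, which, from 3 counts per library, puts atrium-like parts at least 499-fold lower and ventricle-like parts at least 2032-fold lower than their chamber. Hemgn, a nuclear protein gene of red cell precursors, was also at 0 in all 6, at least 99.4-fold and 334-fold lower. The regulator gene Gfi1b and the blood group gene Kel had no fragment in HOs either. Gata1 had 1 fragment in 1 of the 6 libraries, whereas Klf1 had 8 to 13 fragments in each of the 6. Alas2 had 0, 4 and 15 fragments in atrium-like parts and 338, 13 and 37 in ventricle-like parts, and the library with the most, ventricle-like replicate 1, had the second lowest number of hemoglobin fragments. The library with the most hemoglobin, atrium-like replicate 1, had no fragment of Alas2 and 10 of Klf1.

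Of the 15 membrane and skeleton genes 10 were called lower in the atrium-like comparison and 8 in the ventricle-like one, with median log2 fold changes of -3.43 and -4.76, beside 8.81% and 7.35% of all genes called lower. Of 13 erythroid regulators 6 were called lower in each comparison and 1, Zbtb7a, higher in each. Between the HO parts 9 of the membrane and skeleton genes and 10 of the regulators passed the filter, so the rest entered only through E11.5H. Of the heme synthesis and iron uptake genes, 1 of 12 was called lower and 1 higher in the atrium-like comparison, where 16.0% of all genes were higher, and 4 of 12 lower in the ventricle-like comparison, at medians of -0.45 and -1.02. Tfrc, which all growing cells use to take up iron, was the higher one, at 1.5 (adjusted p = 0.0154 by edgeR), a call lost without atria replicate 2 or 3. Of 10 other erythroid genes tested 3 were lower and 1 higher in atrium-like parts, and 2 were lower in ventricle-like parts. Genes of yolk sac endoderm and hepatocytes were present in HOs at 265 to 33084 CPM in sum, against 37.5 to 47.3 CPM in E11.5H, with Afp, alpha-fetoprotein, at 223336, 5558 and 98638 fragments in atrium-like and 5806, 128 and 160702 in ventricle-like parts. Atrium-like replicate 1 was highest in both Afp and hemoglobin, while ventricle-like replicate 2 was lowest in Afp and second highest in hemoglobin. Their part in the hemoglobin values was not tested.

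The genes whose pattern was most like the summed hemoglobin rows were listed among 11073 genes with a mean of at least 5 CPM in E11.5H. Over all 12 libraries the highest Pearson correlations of log2(CPM + 1) were those of Slc4a1 (0.99), Doc2g, Mfsd2b and Gimap5 (0.98), and Bmp10, Nppa, Hemgn, Gata1, Irx6 and Spsb4 (0.97). Among them Slc4a1, Hemgn and Gata1 were in the lists of red cell genes, and the others were in none of the lists. Nppa, the natriuretic peptide gene of atrial cells, had a mean of 2575 CPM in E11.5H and of 3.41 CPM in HOs. Over the 6 embryonic libraries, with each chamber centred on its mean, the highest were Car2, Slc4a1, Ppp1r12c, Alas2 and Trim10 (1.0), and Cep97, Mt2, Ermap, Urod and Klf1 (0.99). Of these 10, 7 were in the lists of red cell and heme genes, namely Car2, Slc4a1, Alas2, Trim10, Ermap, Urod and Klf1. These correlations describe 12 and 6 libraries, share each library's depth, and in the latter case rest mainly on ventricles replicate 3.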

How the data were processed

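RNA-seq of 12 libraries was used. Per the methods and the submitters' processing notes, the authors used STAR with GRCm38/mm10 and derived fragment numbers and FPKM per gene; the version, counting tool and use of strand are not given in the sources used here. The authors deposited expected counts (23.3% not whole), which were rounded here, and FPKM, which were used as deposited for levels and ratios. Paralogs share reads, so rows of a locus were summed. For each pair of groups alone, the quasi-likelihood test of edgeR 4.0.16 (R 4.3.3) was run on TMM-scaled libraries, with p-values adjusted by Benjamini-Hochberg and low genes removed by filterByExpr at 10 counts, after a check on simulated data. Alternatives were DESeq2 1.42.0 and limma 3.58.1, beside other filters, library sizes, a replicate block and leaving out each library. Ratios of 3 against 3 were tested by exact permutation with SciPy 1.17.1. Members and the 13 gene lists were chosen with earlier results of these data known. All 9 genes are named, and from other lists up to 5 called genes by adjusted p, those most abundant in E11.5H, and the 10 most like hemoglobin; some genes that were not called (Pf4, Gata1, Slc4a1, Alas2) were named after their values were seen. Some genes that the rule would name, and an alternative that rests on them, are not reported here.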

Additional observations from a re-analysis of the deposited data

How the results depend on the processing

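Of 190 recomputed values of the main results, 160 kept their direction (ratios and shares) or stayed within 1.5 times the main count (numbers of called genes). Of the rest, 20 moved further and 10 turned direction. P-values did not enter the labels of the ratios and shares. The 2 hemoglobin calls between the embryonic chambers did not hold up. DESeq2 gave 0, limma with voom 0, all 12 libraries in 1 fit 0 (and 30 called genes in place of 712), the replicate block 0, and no filter on low counts 9. Summing the rows of a locus or gene, a fit added after the data were seen, left the call of Hba-x alone. Leaving out each library gave 0 to 9 calls, with 9 without ventricles replicate 1, 1 without ventricles replicate 2 and 0 without any other library. The replicate numbers were not treated as pairs in the main tests. Correlations of same-numbered deviations were 0.01, 0.02 and 0.04 between the chambers and 0.02, 0.59 and 0.36 between the HO parts. They were -0.02 to 0.07 between atrium-like parts and atria, and -0.01 to 0.02 between ventricle-like parts and ventricles. Not every sample correlated best with its own number. Per the methods, HOs were dissected into both parts, but whether a number marks 1 organoid is not given in the sources used here. With so few libraries in a group, these correlations cannot decide whether the numbers mark pairs. Under the block the genes called numbered 621, 0, 2806 and 2003 in the order of the comparisons, and the exact sign-flip test of the paired ratios cannot go below p = 0.25. Of the HO comparisons, limma with voom called 1 hemoglobin row in ventricle-like parts against ventricles in place of 10, and leaving out ventricles replicate 2 gave 9. The genes called there ranged from 1116 to 3725 with a library left out, and from 1662 to 5495 in atrium-like parts against atria. DESeq2 called 56 genes between the HO parts. Hemoglobin per erythroid fragment turned to 0.09 with Alas2 and Slc4a1 alone, chosen after the data were seen. With a library left out, the log2 differences between chambers ranged from -0.04 to 0.23 for the beta-like ratio, from -0.10 to 0.03 for the alpha-like ratio, from -0.06 to 0.16 for Hbb-bh1 over Hbb-y and from -0.05 to 0.00877 for alpha-like over beta-like. Between the HO parts, Hbb-bh1 turned to -0.23 with voom, -0.07 under the block and -1.10 without atrium-like replicate 1, Hba-a1 to -0.44, -0.03 and -0.56, its second row to -0.29 with voom, and Hbb-y to -0.52 without atrium-like replicate 1. With a library left out these reached up to 0.78 for Hbb-bh1, 1.59 for Hba-a1 and 1.84 for Hbb-y. The cause was not tested. Shares without mitochondrial genes were not run. Spread between libraries limits the summed values in HOs and E11.5H, and counting error adds to it for single genes in HOs, where the rows together hold 46 to 523 fragments.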

Other observations

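Globins outside the hemoglobin clusters and the genes that handle free hemoglobin and heme had patterns of their own. Mb, the myoglobin gene of heart and skeletal muscle, had 14.3, 12.3 and 12.5 FPKM in the atria and 83.8, 85.5 and 92.9 FPKM in the ventricles, and the chambers did not overlap (log2 fold change -2.82, standard error 0.11, adjusted p = 3.54e-07 by edgeR). In HOs Mb had 3.62 to 30.6 FPKM. The ventricle-like part was lower than ventricles (log2 fold change -2.30, adjusted p = 0.00899 by edgeR), and the atrium-like part was at -0.61 against atria (adjusted p = 0.271 by edgeR). Cygb, cytoglobin, was higher in HOs, at 3.67 (adjusted p = 0.00226 by edgeR) against atria and 4.07 (adjusted p = 0.00881 by edgeR) against ventricles. Hbq1b, a theta-like gene of the alpha cluster, followed the hemoglobin genes in E11.5H, with 28, 95.7 and 46 fragments in the atria and 62.2, 100 and 367 in the ventricles (log2 fold change -1.89, standard error 0.70, adjusted p = 0.112 by edgeR), and had none in HOs.

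Of the genes for hemoglobin and heme scavenging, 3 of the 5 tested were called higher in the atrium-like part compared with its chamber, and 4 of 5 in the ventricle-like part, beside 16.0% and 11.6% of all genes. Hmox1, heme oxygenase, had 122, 344 and 107 FPKM in atrium-like and 259, 363 and 80.9 FPKM in ventricle-like parts, against 8.33 to 16.9 FPKM in E11.5H (log2 fold changes 3.75, adjusted p = 0.00360 by edgeR, and 4.34, adjusted p = 0.00475 by edgeR). Slc40a1, the iron exporter ferroportin, was higher by 5.48 (adjusted p = 0.00373 by edgeR) and 3.64 (adjusted p = 0.0173 by edgeR). Hpx, hemopexin, was listed at 0 in all embryonic libraries and at 0.0827 to 24.3 FPKM in HOs. The macrophage gene Cd68 was higher in HOs as well, by 4.89 and 6.73 (adjusted p = 0.00133 and 0.00136 by edgeR). Of the 13 leukocyte and macrophage genes, 3 were called higher in atrium-like parts and 7 in ventricle-like parts, and 0 lower. The shares of all genes called higher were again 16.0% and 11.6%. Of the endoderm genes tested, 12 of 12 and 6 of 9 were called higher. Between the embryonic chambers 8 endoderm genes passed the filter, so others entered only through the HO libraries. The part of both lists in these values was not tested.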
